A study of Mus musculus with 2 samples.

Results

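Complement is a system of plasma proteins that cut and activate one another on a target surface, and its genes were followed here in cells of the mouse bone marrow niche. The 9 genes, of 27999 in the count table, were taken by symbol: C1ra, C1s1, C2, C3, C4b, Cfb, Serping1, Cd55 and Cd59a. All 9 had a row in the table and all 9 had UMIs in both libraries. A UMI, or unique molecular identifier, is a tag that lets each captured RNA molecule be counted once. The LepR_tdT library held tdTomato-positive marrow cells of LepR-Cre;LSL-tdTomato mice on the C57Bl/6JCrl strain, aged 3 to 4 months. The EC library held marrow endothelial cells of mice with the same genotype, strain and age, so both groups carry the Cre and the reporter. In such mice Cre is driven from the leptin receptor gene, and tdTomato marks cells that express or once expressed it together with their descendants. The labels mention tamoxifen by gavage and an injected VE-cadherin antibody by sample numbers that overlap, and no gate is stated, so which of these steps applied to which library is uncertain. There was 1 library per group, the number of mice behind each is not given in the sources used here, and no test between groups was possible.

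The cascade starts in several ways and meets at C3. In the classical route the proteases C1r and C1s are bound to C1q. There C1r activates C1s, C1s cuts C4 and C2, and the fragments form an enzyme that cuts C3. In the alternative route factor B takes the place of C2. Serping1 encodes the C1 inhibitor, which blocks C1r and C1s. Cd55, or decay-accelerating factor, takes apart the C3-cutting enzymes on the cell's own membrane, and Cd59a encodes a membrane protein that stops the pore-forming end of the cascade. The liver makes most of the plasma proteins, and many tissues add local supplies.

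The genes fall into linked places of the genome (GRCm38, GENCODE M21). C1ra (chr6:124512405-124523443, plus strand) and C1s1 (chr6:124530345-124542359, minus strand) are neighbours. C4b (chr17:34728380-34743882), Cfb (chr17:34856374-34862518) and C2 (chr17:34862604-34898265) lie in a row on the minus strand, and C3 lies on the same chromosome (chr17:57203970-57228136, minus strand). Serping1 (chr2:84765387-84775444, minus strand), Cd59a (chr2:104095801-104115354, plus strand) and Cd55 (chr1:130439027-130462744, minus strand) stand alone. RefSeq promoters (GRCm38.p6) were matched for 5 of the 9 genes and are shown because these genes fell into 2 opposite patterns below. Each is the 250 bases before the RefSeq start, 5′ to 3′ on the gene's strand, and capitals mark the letters of any searched motif. For C1ra the RefSeq start lies inside the GENCODE interval given above, so most of its window lies there too. C1s1 has 2 starts in the table, of which the upstream one is shown. Intervals run as follows, for C1ra chr6:124512371-124512620, for C1s1 chr6:124542360-124542609, for C3 chr17:57228137-57228386, for Cd55 chr1:130462745-130462994 and for Cd59a chr2:104095551-104095800.
C1ra: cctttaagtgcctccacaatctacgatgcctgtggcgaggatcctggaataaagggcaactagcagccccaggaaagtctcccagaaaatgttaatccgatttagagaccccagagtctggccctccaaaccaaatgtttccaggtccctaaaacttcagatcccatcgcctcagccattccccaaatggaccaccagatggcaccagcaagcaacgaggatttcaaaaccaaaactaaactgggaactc
C1s1: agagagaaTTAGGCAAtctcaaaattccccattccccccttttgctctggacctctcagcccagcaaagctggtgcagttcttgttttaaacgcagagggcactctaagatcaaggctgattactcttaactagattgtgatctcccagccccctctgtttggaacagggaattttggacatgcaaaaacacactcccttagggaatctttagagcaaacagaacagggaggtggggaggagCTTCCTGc
C3: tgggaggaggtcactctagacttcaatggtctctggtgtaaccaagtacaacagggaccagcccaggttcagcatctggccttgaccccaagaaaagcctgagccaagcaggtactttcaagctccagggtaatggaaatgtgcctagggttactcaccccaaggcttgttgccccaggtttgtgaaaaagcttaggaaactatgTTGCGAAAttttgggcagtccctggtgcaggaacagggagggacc
Cd55: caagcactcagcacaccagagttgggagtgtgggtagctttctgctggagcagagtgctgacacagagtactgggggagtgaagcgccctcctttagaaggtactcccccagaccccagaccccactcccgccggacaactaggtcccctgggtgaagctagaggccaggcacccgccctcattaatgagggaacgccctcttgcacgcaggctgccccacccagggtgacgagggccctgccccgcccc
Cd59a: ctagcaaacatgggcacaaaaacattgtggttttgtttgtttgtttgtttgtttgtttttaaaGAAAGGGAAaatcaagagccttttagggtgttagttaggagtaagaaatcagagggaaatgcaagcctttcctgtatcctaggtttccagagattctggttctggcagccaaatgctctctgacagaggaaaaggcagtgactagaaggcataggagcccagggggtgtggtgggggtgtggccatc

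Matches to 6 motifs were searched on both strands and describe letters only. The C/EBP-type motif TTGCNNAA was in the windows of C1s1, 242 bases before the start, and of C3, 45 bases before the start. It was in 9.57% of all 32536 promoter windows of that length. The ETS-type motif CAGGAAG was in the C1s1 window, 8 bases before the start, and in 10.8% of all windows. The interferon-type repeat GAAANNGAA was in the Cd59a window, 187 bases before the start, and in 7.15% of all windows. The palindrome TTCNNNGAA (7.04% of all windows), the NF-kB-type GGGANNTTC (3.22%) and the TATA box TATAAA (12.3%) were in none of the 5. The same ETS-type letters lie 46 bases before the other C1s1 start. The Cd55 window held 64.0% G and C, against a median of 52.4% over all windows, and the windows of the other 4 genes held between 44.8% and 52.0%.

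Cells were grouped by clustering without the complement genes and named from sets of marker genes, with "like" to show that a name rests on RNA alone. The libraries held 4250 LepR_tdT cells (median 4347 UMIs) and 4536 EC cells (median 3084.5 UMIs), where the design text aimed at 2000 to 3000 cells, and 42 barcodes occurred in both. LepR_tdT gave 2907 stromal-like cells, 278 osteolineage-like cells, 60 endothelial-like cells and 307 cells of an unnamed cluster led by Cxcl5, Fndc1 and Kit. EC gave 3658 endothelial-like cells, 269 of them arterial-like and 3389 sinusoidal-like. Markers were compared with the names: Adipoq, a marker of LepR+ stroma, stood at 2579 CPM, the class's summed UMIs of the gene scaled to 1000000, in stromal-like cells and 1.25 CPM in EC endothelial-like cells, and Cldn5, an endothelial junction gene, at 4.98 and 2616 CPM. The bone collagen gene Col1a1 stood at 2874 CPM in osteolineage-like and 122 CPM in stromal-like cells, whereas Ibsp, another marker of that set, stood at 4761 and 7341 CPM. Free RNA was read from barcodes outside the authors' cell table with at most 100 UMIs, and its levels are given beside the genes. All intervals are 95% intervals of counting error, exact Poisson for a level, exact binomial for a share and conditional binomial for a ratio, and do not hold variation between mice.

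The 7 soluble components were higher in stromal-like cells and the 2 membrane regulators higher in endothelial-like cells. A gene was called at a ratio of at least 2-fold with at least 20 UMIs over both classes. All 9 genes were called, 7 higher in stromal-like cells and 2 lower, where 21.5% of 12842 measured genes were higher and 17.8% lower. The median log2 ratio over the 9 genes was 6.77, and over all measured genes 0.11. Summed endothelial markers were at 72.2 CPM in stromal-like and 8235 CPM in EC endothelial-like cells, with 11 of 11 seen in both, and summed stromal markers at 13700 and 347 CPM, with 11 and 10 of 11 seen and Pdgfrb at 0 in the endothelial-like cells. As the classes come from different libraries, class and library cannot be told apart in these ratios, and the ratios within LepR_tdT are given further on.

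**Figure D1:**
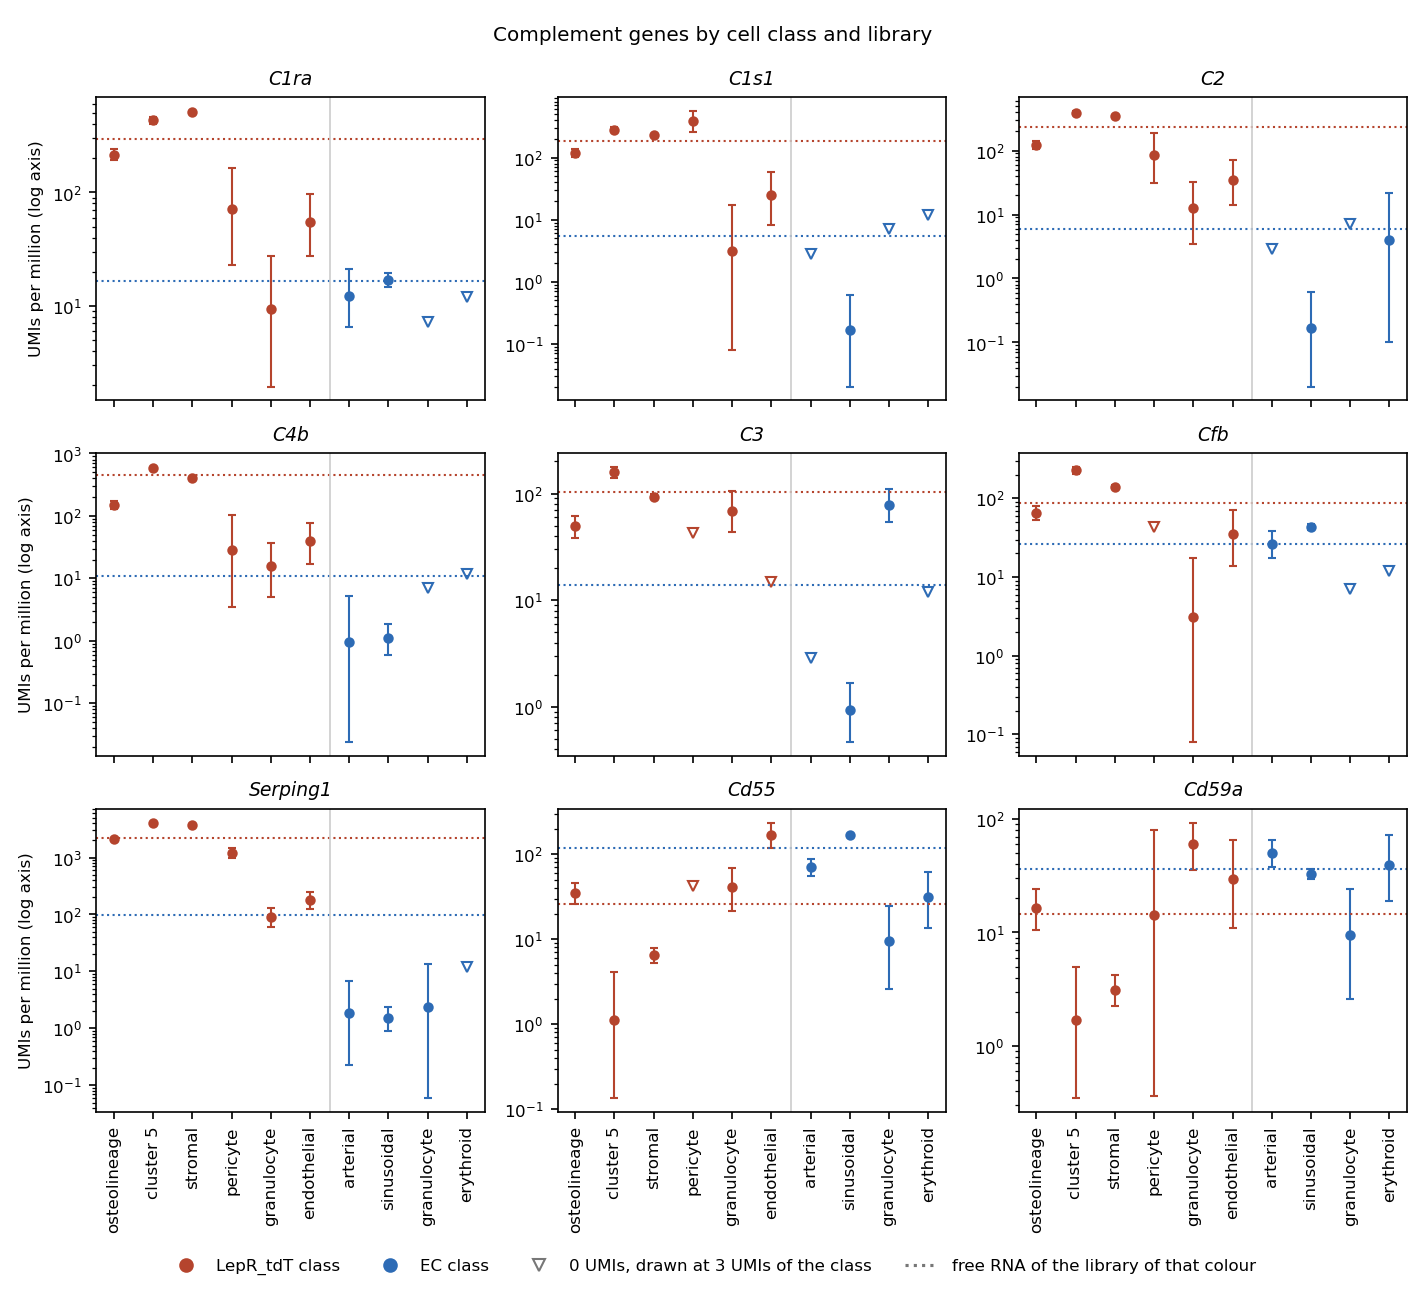
Level of each complement gene in CPM (log axis) in 6 classes of LepR_tdT and 4 of EC, with 95% Poisson intervals of counting error. Open triangles mark classes with 0 UMIs, drawn at 3 UMIs, and dotted lines give the level in free RNA of each library; the soluble components stand high in the stromal-like cells and in cluster 5, the unnamed cluster led by Cxcl5, and Cd55 in the endothelial-like cells of both libraries.

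C1ra, which encodes the first protease of the C1 complex, had 7068 UMIs in stromal-like cells and 214 UMIs in EC endothelial-like cells. That is 510 CPM (499 to 522) against 16.7 CPM (14.5 to 19.0), a log2 ratio of 4.94 (4.74 to 5.14). C1ra was thus low in endothelial-like cells but above 0, at the same 16.7 CPM as in free RNA of EC. EC granulocyte-like and erythroid-like cells had 0 C1ra UMIs, with upper limits of 8.79 and 14.6 CPM. In free RNA of EC the UMIs of Serping1 outnumbered those of C1ra, 340 against 59, and in EC endothelial-like cells the order was turned, with 20 against 214.

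C1s1, the partner protease that C1r activates, had 3175 UMIs in stromal-like cells and 2 UMIs in EC endothelial-like cells. The levels were 229 CPM (221 to 237) and 0.156 CPM (0.0189 to 0.562), a log2 ratio of 10.52 (8.67 to 13.57). Unlike C1ra, its partner gene was at the edge of detection in the endothelial-like cells. In 17 pericyte-like cells of LepR_tdT, C1s1 had 27 UMIs, or 385 CPM (254 to 560), an interval that lies above the stromal-like level, while C1ra had 5 UMIs there, or 71.2 CPM (23.1 to 166).

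The substrates of C1s had the same pattern. C2, the protease part of the classical C3-cutting enzyme, had 4839 UMIs in stromal-like cells and 2 UMIs in EC endothelial-like cells, or 349 CPM (340 to 359) and 0.156 CPM, a log2 ratio of 11.13 (9.28 to 14.18). C4b, whose product anchors that enzyme to a surface, had 5615 and 14 UMIs, or 405 CPM (395 to 416) and 1.09 CPM (0.596 to 1.83), a log2 ratio of 8.54 (7.79 to 9.41). Both were near 0 in endothelial-like cells. In LepR_tdT free RNA C4b stood at 450 CPM and C2 at 236 CPM.

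C3, the protein at which all routes meet, was at 93.4 CPM (88.4 to 98.7; 1294 UMIs) in stromal-like cells and 0.856 CPM (0.427 to 1.53; 11 UMIs) in EC endothelial-like cells. Its log2 ratio was 6.77 (5.93 to 7.78). In granulocyte-like cells the interval of C3 held or reached the stromal-like level. They had 69.1 CPM (43.3 to 105; 22 UMIs) in LepR_tdT and 78.6 CPM (54.1 to 110; 33 UMIs) in EC, and free RNA had 103 and 13.9 CPM. In EC, where free RNA held little C3, the granulocyte-like interval lay above the free RNA level.

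Cfb, the factor B gene of the alternative route, was detected well in both classes. It stood at 140 CPM (134 to 146; 1936 UMIs) in stromal-like cells and 41.7 CPM (38.3 to 45.4; 536 UMIs) in EC endothelial-like cells. Its log2 ratio was 1.74 (1.61 to 1.89). The endothelial-like level lay above the 26.7 CPM of EC free RNA, and Cfb had 0 UMIs in EC granulocyte-like and erythroid-like cells, with upper limits of 8.79 and 14.6 CPM. EC endothelial-like cells held 17.6% of all Cfb UMIs in the cells of both libraries.

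Serping1, the C1 inhibitor gene, was at 3780 CPM (3747 to 3812; 52340 UMIs) in stromal-like cells and 1.56 CPM (0.951 to 2.40; 20 UMIs) in EC endothelial-like cells. The log2 ratio was 11.25 (10.62 to 11.96). Stromal-like cells held 82.0% of all its UMIs in cells, against 3.88% for Cd55. Pericyte-like cells had 1211 CPM (967 to 1498; 85 UMIs), and Serping1 reached 2181 CPM in LepR_tdT free RNA and 96.4 CPM in EC free RNA.

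The membrane regulators ran the other way. Cd55 had 90 UMIs in stromal-like cells and 2049 UMIs in EC endothelial-like cells, or 6.50 CPM (5.23 to 7.99) and 159 CPM (153 to 167), a log2 ratio of -4.62 (-4.94 to -4.31). Cd59a had 43 and 438 UMIs, or 3.11 CPM (2.25 to 4.18) and 34.1 CPM (31.0 to 37.4), a log2 ratio of -3.46 (-3.94 to -3.0). Stromal-like cells lay below the free RNA of their own library for both, 25.7 CPM for Cd55 and 14.7 CPM for Cd59a. Endothelial-like cells lay above EC free RNA for Cd55 (117 CPM), and for Cd59a (36.3 CPM) their interval held the free RNA level. Cd59a also stood at 39.5 CPM (19.0 to 72.7; 10 UMIs) in EC erythroid-like cells, so its intervals in the 2 classes overlapped. In LepR_tdT its highest class level was that of granulocyte-like cells, 59.7 CPM (35.9 to 93.2), from 19 UMIs in 3 of 39 cells.

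The direction of all 9 ratios was the same within the LepR_tdT library, where 60 endothelial-like cells could be set against the stromal-like cells of the same library. There, 7 genes were higher in stromal-like cells and 2 lower, with 17.1% of 11677 measured genes higher and 14.6% lower. For C1ra, C1s1, C2, C4b and Serping1 the ratios were smaller than against EC. Serping1 stood at 3780 CPM in stromal-like and 179 CPM (125 to 248; 36 UMIs) in these endothelial-like cells, and its log2 ratio was 4.40 (3.93 to 4.92). C3 had 0 UMIs in them, so its level in stroma was higher by a factor of at least 6.27, with the 0 set to a floor of 3 UMIs over the class. The log2 ratios of C1ra, C1s1, C2 and C4b lay between 3.21 and 3.35. The endothelial-like cells of LepR_tdT carried stromal markers at a summed 1063 CPM, against 347 CPM in those of EC, and the part of this in the ratios was not tested. Cfb was at 34.8 CPM (14.0 to 71.6; 7 UMIs) in them, and its log2 ratio of 2.01 (0.96 to 3.32) held the value found against EC. Cd55 was at 169 CPM (117 to 236; 34 UMIs) in the endothelial-like cells of LepR_tdT, close to the 159 CPM of EC, and the log2 ratio was -4.70 (-5.28 to -4.09). For Cd59a the ratio was -3.26 (-4.50 to -1.74), from 6 UMIs in these cells.

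**Figure D2:**
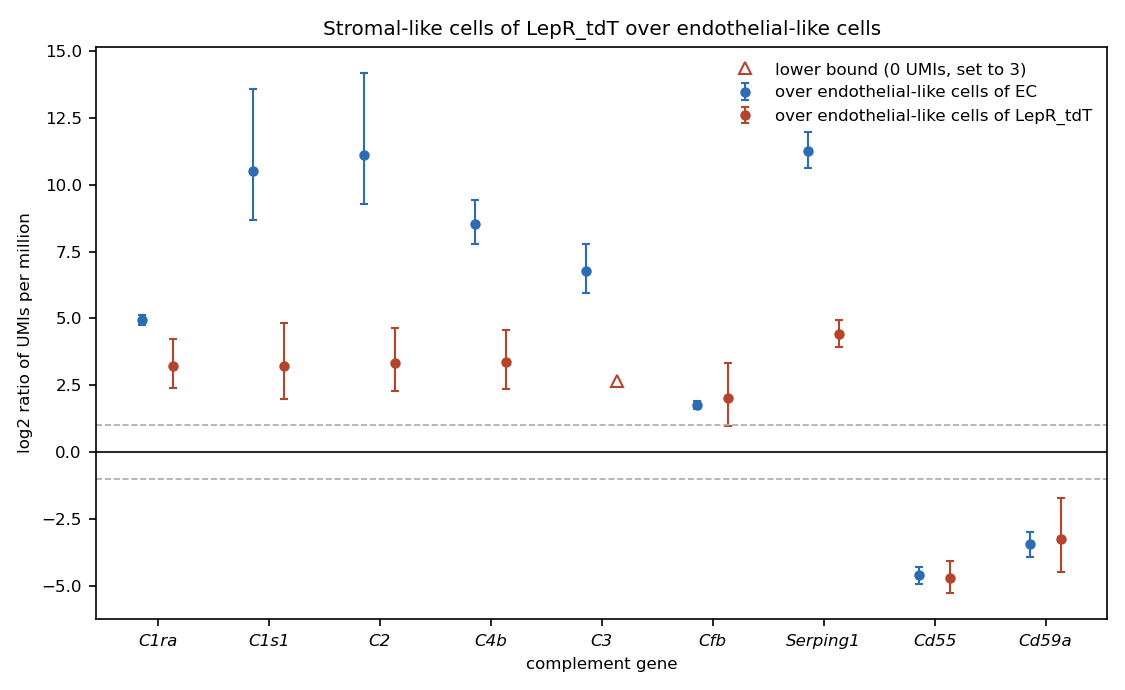
Log2 ratio of CPM for each gene, stromal-like cells of LepR_tdT over endothelial-like cells of EC (blue) or of LepR_tdT itself (red), with 95% intervals of counting error and dashed lines at 2-fold. The 7 soluble components lie above 0 and Cd55 and Cd59a below 0 in both; the open triangle is the lower bound for C3.

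Shares of cells were compared at equal depth. Each cell was thinned to 1000 UMIs, which left out 8 stromal-like and 38 EC endothelial-like cells. A Serping1 UMI was then found in 94.5% of stromal-like cells (93.6 to 95.3) and 0.221% of endothelial-like cells. C1ra UMIs were found in 39.2% and 1.57%, C4b in 31.0% and 0.193%, and C2 in 27.7% and 0.0276%. C1s1 was found in 20.2% of stromal-like cells and in 0 of 3620 endothelial-like cells. A count of 0 allows a share of up to 0.0829% at a floor of 3 cells, or 0.102% as the exact binomial limit, and before thinning 2 endothelial-like cells (0.0547%) had a C1s1 UMI. The soluble genes were thus seen in many stromal-like cells and in few endothelial-like cells. Cfb gave 12.6% and 4.61%, and C3 gave 8.28% and 0.138%. Cd55 was found in 0.897% of stromal-like cells (0.587 to 1.31) and 14.8% of endothelial-like cells. EC granulocyte-like cells had a Cd55 UMI in 2.86% (35 cells thinned) and EC erythroid-like cells in 3.70% (27 cells), from 1 cell each. Their intervals, 0.0723 to 14.9% and 0.0937 to 19.0%, hold both the stromal-like and the endothelial-like share. These blood cells can therefore not be told from either class. Before thinning, Cd55 was in 2.86% of stromal-like cells at a median of 4621 UMIs, and Serping1 in 99.5%.

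**Figure D3:**
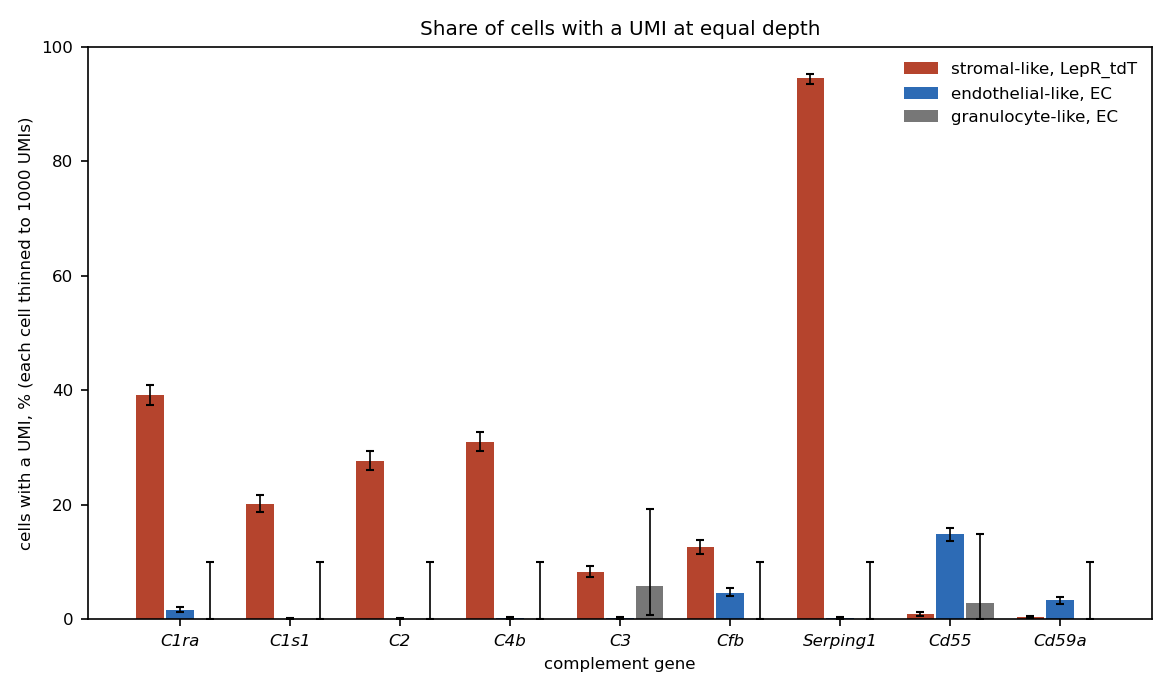
Share of cells with at least 1 UMI of each complement gene after thinning each cell to 1000 UMIs, in stromal-like cells of LepR_tdT, endothelial-like cells of EC and granulocyte-like cells of EC, with exact 95% binomial intervals. Serping1 was seen in 94.5% of stromal-like cells and Cd55 in 14.8% of endothelial-like cells; granulocyte-like cells (35 thinned) are shown for background.

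Several other genes of the cascade were also higher in stromal-like cells, and those that were not are given further on. Of the lectin route, which starts from sugar-binding proteins, 3 of 9 listed genes were measured and all 3 were higher in stromal-like cells. Colec11 had 426 UMIs in stromal-like and 0 in EC endothelial-like cells (at least 132-fold), Mbl1 had 357 and 0 (at least 110-fold), and Colec12, a scavenger receptor with a lectin domain, had a log2 ratio of 3.97. Of 7 genes of the pore-forming end, C6 (1137 and 0 UMIs, at least 352-fold) and C8g (46 and 12 UMIs, log2 ratio 1.83) were measured and higher. Besides Serping1, the soluble regulator Clu, or clusterin, was higher, at 1374 and 19.6 CPM, as was Vtn, or vitronectin, with 93 and 0 UMIs (at least 28.8-fold).

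Factor D and the receptors for C5a were higher in endothelial-like cells. Cfd, the protease that cuts factor B, stood at 3.61 CPM (50 UMIs) in stromal-like and 597 CPM (7675 UMIs) in EC endothelial-like cells, a log2 ratio of -7.37, and at 2002 CPM (403 UMIs) in the 60 endothelial-like cells of LepR_tdT. The C5a receptor genes C5ar1 and C5ar2 were each at 5.13 CPM in stromal-like cells, and at 133 and 138 CPM in endothelial-like cells, and Cd93, a membrane lectin first described as a C1q receptor, had a log2 ratio of -4.45. Among the 10 receptor genes 5 were measured, 3 lower and 2 within 2-fold, one of them C1qbp at 64.1 and 60.2 CPM. Summed macrophage markers were at 120 CPM in stromal-like and 458 CPM in endothelial-like cells, with 7 of 8 seen and Adgre1 at 0 in both, and their part in the receptor values was not tested. The membrane regulators were mixed: of 7 measured with Cd55 and Cd59a, 2 were higher in stromal-like cells (Csmd1, log2 ratio 10.18; Cd59b, 2.77), 3 were lower, the third being Susd4 with 0 and 201 UMIs (at least 72.2-fold lower), and 2 lay within 2-fold. The rodent regulator Cr1l was one of these, at 111 and 159 CPM. C1q was scarce: C1qb had 10 and 17 UMIs and lay within 2-fold, and C1qa and C1qc were under the minimum of 20 UMIs.

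Near-identical copies limit a few of these values. C1rb, a close copy of C1ra, had 17 UMIs in stromal-like cells, C1s2 had 2, and Cd55b had 0 in stromal-like and 8 in EC endothelial-like cells, so few UMIs were assigned to them, and how reads shared by the copies were treated is not given in the sources used here. Cd59b had 59 and 8 UMIs, the reverse of Cd59a with 43 and 438, and lies next to it on chromosome 2. C4a was not analysed here. The gene Gm20547, which spans parts of Cfb and C2 on the same strand, had 0 UMIs in both classes. The antisense gene Gm16083, which overlaps the start of Cd55, had 2 and 37 UMIs, and Gm15675, beyond the end of Cd55, had 2 and 296 UMIs; both were lower in stromal-like cells as Cd55 was. Within 50000 bases of the row from C4b to C2, 7 other genes were measured, 0 higher and 2 lower (Zbtb12 and Neu1), and their median log2 ratio was -0.21. Next to C1ra, the related gene C1rl had 210 and 25 UMIs, a log2 ratio of 2.96.

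Within the stroma the genes varied little. The 2907 stromal-like cells were divided into 4 subclusters, led by Igtp and Dock10 (1460 cells), by Kit and Comp (784), by a set with the stress genes Fos and Hspa1a (341) and by haemoglobins (322). C1ra ranged from 498 to 562 CPM over them, C1s1 from 220 to 258, C2 from 320 to 385, C3 from 72.8 to 106, C4b from 341 to 441, Cfb from 134 to 144 and Serping1 from 3466 to 4009. Cd55 alone spanned more than 2-fold, with 2.32 CPM (1.11 to 4.27) in the Kit and Comp cells and 11.5 CPM (6.90 to 17.9) in the cells with the stress genes, from 10 and 19 UMIs, both below the 25.7 CPM of LepR_tdT free RNA.

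The unnamed cluster led by Cxcl5, Fndc1 and Kit carried the same genes as stromal-like cells. Of the 9, 8 lay within 2-fold and 1, Cd55, was lower, with 2 and 90 UMIs, or 1.13 and 6.50 CPM, a log2 ratio of -2.53 (-5.60 to -0.63). Of 11764 measured genes, 3.87% were higher and 6.34% lower in the cluster. C3 stood at 158 CPM (140 to 178) in the cluster and 93.4 CPM in stromal-like cells, Cfb at 229 and 140 CPM and C4b at 575 and 405 CPM. These log2 ratios, 0.76 (0.57 to 0.95), 0.71 (0.55 to 0.86) and 0.50 (0.41 to 0.60), lie beyond counting error and under 2-fold. The C5a receptors differed more, with C5ar2 at 46.7 and 5.13 CPM (log2 ratio 3.19) and C5ar1 at 20.3 and 5.13 CPM (1.98). Cfd (log2 ratio 2.18) and Cd46 (1.42) were also higher. Colec11 was lower in the cluster, at 4.50 and 30.8 CPM, as was Cd93 (-2.06). Vtn had 5 and 93 UMIs, a ratio of -1.25 (-2.91 to 0.02).

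Among shallow cells of LepR_tdT the genes differed in both directions, as measured genes did at large. Cluster 11, with a mitochondrial share of 18.8% and Col1a1 among its leading genes, was set against cluster 4, with 2.59%. C4b was at 795 CPM (147 UMIs) in cluster 11 and 179 CPM (38 UMIs) in cluster 4, a log2 ratio of 2.15 (1.63 to 2.70), whereas Serping1 was at 1255 and 4170 CPM, a ratio of -1.73 (-1.95 to -1.52). C1ra (249 and 543 CPM) and Cfb (81.1 and 165 CPM) were lower too, and C1s1, C2 and C3 lay within 2-fold. Of 7 measured genes 1 was called higher and 3 lower. The background was wide, as 23.8% of 3080 measured genes were higher and 41.9% lower in cluster 11. The median log2 ratio was -0.75 over the 7 genes and -0.70 over all measured genes, so these calls lie near the background. The mitochondrial share moved with these differences, and its part in them was not tested.

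Osteolineage-like cells were named from bone-lineage markers such as Bglap and Col1a1. They had less of the soluble components followed here, and more of Cd55 and Cd59a, than stromal-like cells. C1ra stood at 215 CPM (192 to 240) in osteolineage-like and 510 CPM in stromal-like cells, C2 at 124 and 349, C4b at 151 and 405, and Cfb at 64.8 and 140, with log2 ratios from -1.49 for C2 to -1.11 for Cfb. Serping1 (2085 and 3780 CPM), C1s1 (119 and 229) and C3 (49.1 and 93.4) were also lower than in stroma but within 2-fold. Cd55 was at 34.8 CPM (25.9 to 45.7; 51 UMIs) and 6.50 CPM, a log2 ratio of 2.42 (1.89 to 2.93), and Cd59a at 16.4 CPM (10.5 to 24.3; 24 UMIs) and 3.11 CPM, a ratio of 2.40 (1.61 to 3.15). Free RNA of LepR_tdT held Cd55 at 25.7 CPM and Cd59a at 14.7 CPM. The osteolineage-like interval of Cd59a held that level, and the interval of Cd55 began just above it. Thus 2 genes were called higher and 4 lower, where 5.92% of 11778 measured genes were higher and 8.41% lower. Of the other genes Clu was lower, at 473 and 1374 CPM, and C6, Colec11 and Mbl1 were lower with ratios of -2.33, -2.91 and -1.15. Cd93 (-1.13) was lower as well, Vtn was lower from 2 and 93 UMIs (-2.30, -5.37 to -0.41), and Cfd was lower from 1 and 50 UMIs (-2.40, -7.74 to 0.14). Of the membrane regulators other than Cd55 and Cd59a, 4 were measured and all 4 lay within 2-fold, with a median log2 ratio of -0.41. Summed erythroid markers were at 2767 CPM in osteolineage-like and 573 CPM in stromal-like cells, with 8 of 8 markers seen in both. Summed fibroblast markers were at 3258 and 919 CPM, with 6 of 6 seen in both, and summed chondrocyte markers at 369 and 38.6 CPM, with 5 and 4 of 6 seen, Acan at 0 in both and Chad at 0 in stromal-like cells. The part of these markers in the differences was not tested. With cells picked by single-cell marker gates in place of clusters (986 osteolineage-like cells), 1 gene passed 2-fold, Cd55 with 1.15, and the soluble genes lay between -0.43 and -0.08. The osteolineage gate did not leave out cells that also carry stromal markers, so these cells can include stromal-like ones. This run therefore cannot decide whether the differences between clusters hold.

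The osteolineage-like cells fell into 3 subclusters with different complement levels. Subcluster 0 (127 cells) was led by Chl1, Tmem178, Ank3 and Bmp4. Subcluster 1 (104 cells) was led by Col13a1, Col22a1, Ifitm5, the cartilage collagen gene Col2a1 and Dmp1, a gene of osteocytes. Subcluster 2 (47 cells) was led by Igfbp6, Meg3 and Pthlh, with Cd34 and Clec3b in its first 10. Summed osteolineage markers were at 5639, 15692 and 6446 CPM in subclusters 0, 1 and 2. Stromal-like cells had 7647 CPM, of which Ibsp gave 7341 CPM. Summed stromal markers were at 7090, 1923 and 3742 CPM in the subclusters and 13700 CPM in stromal-like cells. By these sums the name osteolineage-like is less sure for subclusters 0 and 2. Serping1 was at 781 CPM (712 to 856) in subcluster 1 and 2527 CPM (2405 to 2653) in subcluster 0, a log2 ratio of -1.69 (-1.84 to -1.54). C1s1 stood at 28.4 and 127 CPM, C2 at 36.8 and 125, C1ra at 87.0 and 258, and C4b at 97.1 and 211. All 7 soluble genes were lower in subcluster 1, C3 and Cfb from 4 and 3 UMIs there, where 9.73% of 6503 measured genes were lower. Both membrane regulators were higher, against 3.68% of genes: Cd55 with 61.9 CPM (37 UMIs) and 18.8 CPM (12 UMIs), a ratio of 1.72 (0.75 to 2.80), and Cd59a with 36.8 CPM (22 UMIs) and 3.13 CPM (2 UMIs), a ratio of 3.56 (1.53 to 6.69). Clu (239 and 756 CPM) was lower in subcluster 1 as well, and Csmd1 (33.5 and 67.3 CPM) lay just past 2-fold on the lower side. Subcluster 1 also carried erythroid markers at a summed 6439 CPM, against 113 CPM in subcluster 0, and their part was not tested; in EC erythroid-like cells Cd59a was at 39.5 CPM. Without subcluster 1, Cd59a in osteolineage-like cells turned to a log2 ratio of -0.43 against stromal-like cells, and 2 of the 9 genes passed 2-fold in place of 6. With each cell thinned to 1000 UMIs, which lowers the counts, 3 genes were called between subclusters 1 and 0, 0 higher and 3 lower. After subtraction of free RNA, estimated at 52.5% of the UMIs of subcluster 1 and 1.47% of those of subcluster 0, the log2 ratio was -8.09 in place of -1.69 for Serping1, -4.79 in place of -1.57 for C1ra and -4.48 in place of -1.12 for C4b. It was -3.76 for C1s1 and -3.73 for C2, and all 9 directions were kept. The free share was estimated from erythroid and granulocyte markers alone, so the erythroid markers of subcluster 1 largely set it. The subtraction therefore cannot tell free RNA from other sources of these markers, and it is no test of the differences.

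Of the 3 osteolineage-like subclusters, subcluster 2 had the highest levels of all soluble genes but C4b, with the widest ratios over subcluster 0 for Cfb and C3. Cfb was at 309 CPM (241 to 389; 71 UMIs) in subcluster 2 and 32.9 CPM (20.3 to 50.2; 21 UMIs) in subcluster 0, a log2 ratio of 3.23 (2.51 to 4.01). C3 was at 196 CPM (143 to 262) and 36.0 CPM (22.8 to 54.0), a ratio of 2.44 (1.69 to 3.23). Both lay above their stromal-like levels of 140 and 93.4 CPM as well. So did C1s1, at 330 CPM in subcluster 2 and 229 CPM in stromal-like cells, and Serping1, at 4242 and 3780 CPM. C2 (348 and 125 CPM) and C1s1 (330 and 127 CPM) were higher too, so 4 of 7 measured genes were called higher and 0 lower, against 6.14% and 11.2% of 5552 measured genes. Clu was lower here too, at 296 and 756 CPM. C1ra, C4b and Serping1 lay within 2-fold, C4b on the lower side with 122 CPM (80.9 to 176) and 211 CPM (177 to 250). With cells thinned to 1000 UMIs, 2 genes were called higher and 1 lower.

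**Figure D4:**
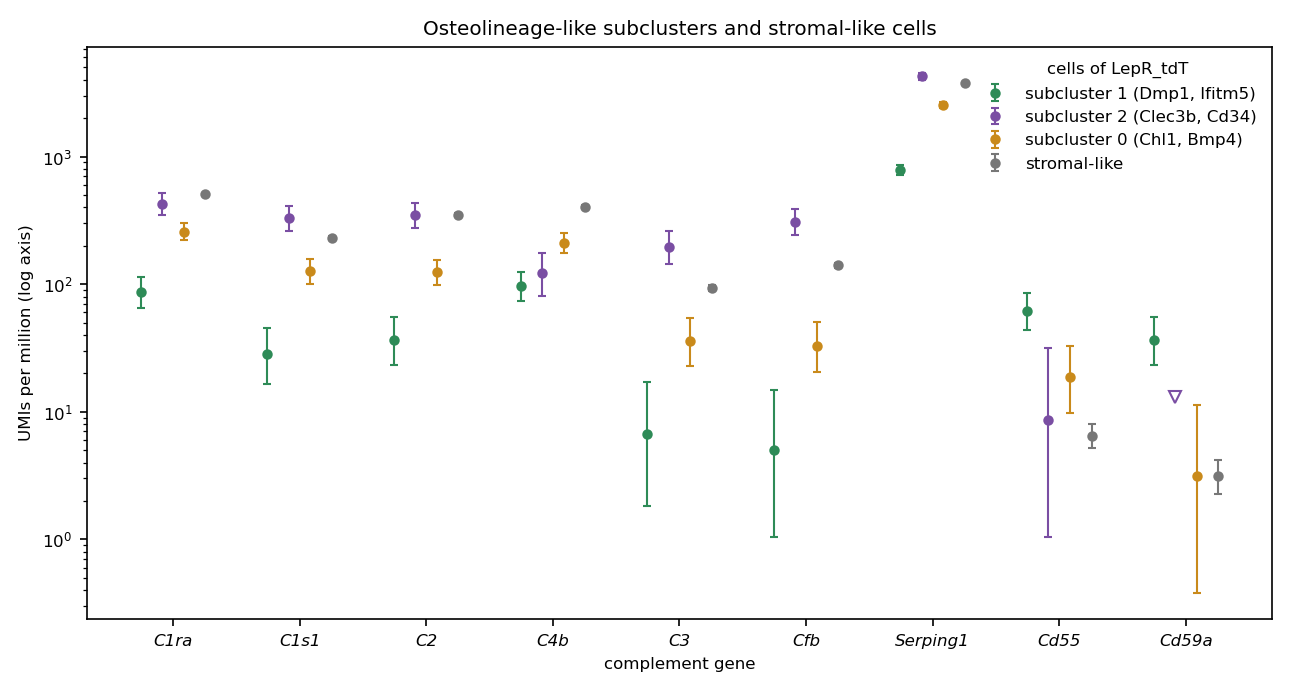
Level of each complement gene in CPM (log axis) in 3 subclusters of osteolineage-like cells and in stromal-like cells, all of LepR_tdT, with 95% Poisson intervals of counting error; the open triangle marks 0 UMIs, drawn at 3 UMIs. Subcluster 1 lies lowest for the 7 soluble genes and highest for Cd55 and Cd59a, and subcluster 2 lies highest for C3, Cfb, C1s1 and Serping1.

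Between vessel types the genes differed less. Cd55 was at 70.9 CPM (55.8 to 88.9; 75 UMIs) in arterial-like and 167 CPM (160 to 175; 1974 UMIs) in sinusoidal-like cells of EC, a log2 ratio of -1.24 (-1.59 to -0.91). Cd59a ran the other way, at 50.1 CPM (37.6 to 65.6) and 32.7 CPM (29.5 to 36.1), a ratio of 0.62 (0.18 to 1.04) that stayed under 2-fold. Cfb was at 26.5 and 43.1 CPM (-0.70, -1.31 to -0.15), and C1ra had 13 and 201 UMIs, a log2 ratio of -0.47 (-1.41 to 0.34) that counting error covers. Of 5 measured genes 0 were called higher and 1 lower, where 7.63% of 11108 measured genes were higher and 6.40% lower. At double the clustering resolution, which gave 381 arterial-like cells, the Cd55 ratio was -0.80 and the call ended. Outside the 9 genes, Cfd (35.0 and 648 CPM, log2 ratio -4.21) and Susd4 (1.89 and 16.9 CPM, -3.16) were lower in arterial-like cells, Cd46 was lower from 2 and 46 UMIs (-1.04, -4.13 to 0.89), and Clu was higher (40.7 and 17.7 CPM, 1.20). Between the 2 sinusoidal-like clusters of EC, the stress-led one (1229 cells) and the other (2160 cells), 4 genes were measured and all 4 lay within 2-fold, where 2.02% of 10941 measured genes were higher and 1.35% lower, among them Cd55 at 150 and 179 CPM and Cfb at 37.6 and 46.9 CPM.

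Across cell groups, with stromal-like cells taken whole, Serping1 was highest in osteolineage subcluster 2 (4242 CPM, 3980 to 4517), the shallow cluster 4 (4170, 3900 to 4455) and the Cxcl5-led cluster (4019, 3926 to 4113), whose intervals overlap. Stromal-like cells (3780, 3747 to 3812) came next, although 2 of their subclusters, at 4009 (3949 to 4069) and 4006 CPM (3907 to 4108), had intervals that overlap that of the Cxcl5-led cluster. There followed osteolineage subcluster 0, the shallow cluster 11 and pericyte-like cells, the last 2 with overlapping intervals. Osteolineage subcluster 1 and the endothelial-like, granulocyte-like and erythroid-like cells of LepR_tdT followed, and the named EC classes were at or under 2.38 CPM. For Cd55, among these groups, the endothelial-like cells of LepR_tdT and the sinusoidal-like cells of EC led with overlapping intervals. Arterial-like cells and osteolineage subcluster 1 came lower, and their intervals (55.8 to 88.9 and 43.6 to 85.3 CPM) also overlap. Stromal-like cells and the Cxcl5-led cluster came at the low end.

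Genes that shared a pattern over 16 clusters and subclusters of at least 50 cells were sought by Pearson r of log2(CPM + 1) among 11941 genes. Serping1 was followed by Agt and Gpx3 (both 0.995) and Ackr4 (0.993), and C1s1 by Kng1 and Gpm6b (both 0.997) and Echdc2 (0.996). C1ra was closest to Mgp (0.994), followed by Gnai1 and, at 0.985, by Gas6, C2 to Kng2 (0.986), Il34 (0.982) and Sfrp4 (0.979), and C4b to S1pr3 (0.989), Bicc1 (0.988) and Serpina12 (0.987). C3 had lower values, with G0s2 (0.973), B3gnt5 (0.967) and Psd4 (0.965), and Cfb was closest to Itih5 (0.978), Apoe (0.966) and Serpina3f (0.956). Among the 7 soluble genes, which alone were compared with one another, Serping1 and C1s1 were the closest pair (0.987), and C3 and Cfb reached 0.467. These values describe 16 groups that share 2 libraries, so they are a description.

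From cell to cell the genes scattered to different degrees. At 1000 UMIs per cell, the variance over the mean among stromal-like cells was 1.20 for C3, above that of 98.3% of 1453 genes of like mean, and 1.17 for C2, 1.17 for C4b and 1.11 for Cfb, above 90.4%, 89.0% and 92.8% of like genes. C1ra (1.05) lay above 49.6% and Serping1 (1.46) above 47.4% of genes of like mean, of which there were 19 for Serping1. The highest count in a cell was 7 for C4b, 5 for C1ra, C2 and C3, 3 for C1s1 and Cfb, and 16 for Serping1. Correlations between pairs of the 7 soluble genes across 2899 stromal-like cells ran from -0.015 to 0.109, which at these sparse counts is no finding.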

How the data were processed

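Single cells were measured by droplet RNA sequencing in 2 libraries, and the deposited files hold raw UMI counts per gene and barcode with the authors' table of cells. Per the submitters' processing notes the tools included Cell Ranger 2.1.1 and Seurat 2.3.4 with build mm10, with no roles given. How multi-mapped or antisense reads were counted is not given in the sources used here.

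The 9 genes, the gene lists and the comparisons were chosen with earlier results of these data known. Cells of the authors' table were clustered by the Leiden method of igraph on 1979 variable genes, without complement and mitochondrial genes, using 30 principal components, 15 neighbours and resolution 0.5. A cluster was named from at least 3 markers at 1.5-fold and 10 UMIs, unless its leading genes or depth went against the name. Stromal-like and osteolineage-like cells were clustered again; the osteolineage-like subclusters were added after values had been seen. UMIs were summed per class and scaled to CPM. Ratios, with exact 95% intervals from SciPy 1.17.1, were called at 2-fold with 20 UMIs over both classes, and a class at 0 was set to 3 UMIs. Intervals cover counting error only. With 1 library per group there is no p-value. Named genes were the 9, list genes past 2-fold or with the most UMIs, and the 3 genes closest to each well-counted gene of the 9 in pattern; neighbours were named after their values were seen. One listed gene is not reported here. Scrublet marked 0 of 4250 LepR_tdT and 9 of 4536 EC cells, so it is taken as not having worked and no cell was removed. The ratio code was tested on simulated counts. Totals in cells were 18139911 UMIs in LepR_tdT and 14111524 in EC.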

Additional observations from a re-analysis of the deposited data

Results flagged for a closer look

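Complement UMIs were also found in barcodes outside the authors' cell table with more than 100 UMIs, which no comparison above uses. There were 3055 such barcodes in LepR_tdT and 2982 in EC. In those of LepR_tdT, Serping1 stood at 2097 CPM, C4b at 360 CPM, C1ra at 296 CPM, C2 at 220 CPM, C1s1 at 158 CPM, Cfb at 70.0 CPM, C3 at 62.0 CPM and Cd59a at 14.0 CPM. In those of EC, Cd55 stood at 79.5 CPM, Cfb at 31.0 CPM, Serping1 at 21.3 CPM, Cd59a at 19.4 CPM, C1ra at 11.6 CPM and C3 at 9.70 CPM. There were no control samples, and each of these genes had more than 3 UMIs there.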

How the results depend on the processing

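Against endothelial-like cells, 7 genes were higher and 2 lower in stromal-like cells under every alternative run, which covered scaling, the UMI minimum, free RNA, resolution, marker gates, doublet scores, cell weighting, thinning and left-out cells. For arterial-like over sinusoidal-like cells (1 called, 0 higher and 1 lower), 5 were called with 4 higher without a UMI minimum, 2 with 1 higher after subtraction of free RNA, and 0 with 0 lower at double resolution. The runs without a minimum and with subtraction set a class under 3 UMIs to 3. The 4 were C1s1, C2, C3 and C4b, with 0 or 1 UMI in arterial-like cells. Their calls come from that floor and show no higher level. For osteolineage-like over stromal-like cells (2 higher, 4 lower), thinning left 1 higher. Marker gates, which let cells with stromal markers pass as osteolineage-like, gave 1 in all, 1 higher and 0 lower. Leaving out osteolineage subcluster 1 gave 2 in all, 1 higher and 1 lower, with Cd59a at -0.43, and leaving out subcluster 2 gave 7 lower. Between subclusters 1 and 0, thinning gave 3 in all, 0 higher and 3 lower. Between subclusters 2 and 0, subtraction of free RNA gave 1 lower, and thinning gave 2 higher and 1 lower. Across stromal-like subclusters, 2 genes spanned 2-fold after thinning, against 1. The causes were not tested, although thinning and left-out cells lower the counts by construction. Of the single-gene values, 336 stayed within the limits used, 59 moved and 1 reversed. The first count includes runs that could hardly move a value. These were the run without a UMI minimum, scored only for genes already past it, and the run without the few cells that Scrublet marked. The left-out subclusters, the stress-led and haemoglobin-led cells, shared barcodes and the highest doublet scores were alternatives chosen after seeing the data. No paired analysis was possible because each group had 1 library, and no replicate could be left out. Depth limits C1s1 and C2 in endothelial-like cells and Cd59a in osteolineage subclusters, each with few UMIs.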
